A study of Mus musculus with 74 samples.

Results

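The promoters of long intergenic noncoding RNA (lincRNA) genes were followed through nuclear reprogramming in mouse embryos. A promoter was the interval of 1 kb on either side of the annotated 5′ end of an autosomal gene of type lincRNA in GENCODE M21 (mm10). A gene was kept when that end lay more than 5 kb from the 5′ end of any protein-coding gene. Of 51229 autosomal 5′ ends in the annotation, 5209 belonged to lincRNA genes and 4587 of these were kept. The other 622 lay within 5 kb of a protein-coding 5′ end and were set beside them. A promoter was termed marked when peaks of the histone mark H3K9me3 covered at least 50% of it. The choice of members used the annotation only and no measured value.

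H3K9me3 was profiled by ultra-low-input native ChIP-seq, in which chromatin cut by micrococcal nuclease is precipitated without crosslinking, in 41 precipitates and 33 inputs. Cumulus cells (CC), the somatic cells that surround the oocyte, came from B6D2F1 females and were the nuclear donors. Embryos were made by somatic cell nuclear transfer (SCNT) into enucleated B6D2F1 oocytes, activated with SrCl2 in the presence of cytochalasin B, and taken at 6 and 14 h post activation (hpa), as 2-cell, 4-cell and 8-cell embryos and morulae, and as the ICM (inner cell mass) and TE (trophectoderm) of blastocysts, parted by micromanipulation. Fertilized zygotes at pronuclear stage 5 (PN5) were of C57BL/6 background and came from an earlier study, so embryo type, strain and study cannot be told apart in any comparison with PN5. The labels name no transgene, knockout or knockdown. Replicates (between 2 and 7 precipitates per group) had been pooled before peaks were called, which left 10 peak lists of 120201 to 200344 peaks, 1 per group. The spread between replicates is therefore unknown, no test across samples was possible, and the intervals given are 95% counting intervals over promoters, which are not replicates of a condition.

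LincRNA genes are transcribed by RNA polymerase II and are mostly spliced, but they give rise to no known protein. Their promoters are usually poorer in CpG than those of coding genes, many lie in or beside transposable elements, and many are active in few tissues, testis and early embryo among them. H3K9me3 is set by the SUV39H and SETDB1 methyltransferases, is bound by HP1 proteins and is typical of silent chromatin over repeats, zinc finger gene clusters and the repressed copy of imprinted genes. In cloned embryos, H3K9me3 carried over from the donor nucleus is known as a barrier to the activation of embryonic genes.

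The 5′ ends of 8 members named in the text are printed here because they stand for the patterns described further on. They are Miat, Mir124a-1hg and 9230019H11Rik, which had peaks at 6 hpa and none in CC, Gm48681, which was marked in every list, Gm833, which was marked from CC to 4-cell embryos and free of peaks in PN5, D930007P13Rik, which was marked in PN5 alone, and the imprinted genes H19 and Meg3. Each run reads 5′ to 3′ on the strand of the gene, from 150 bases before the 5′ end through the first 50 bases of the gene, taken from GRCm38.p6, the assembly behind mm10. Capitals mark CpG dinucleotides. Miat lies at chr5:112229346-112229545 (minus strand), Mir124a-1hg at chr14:64587181-64587380 (plus), 9230019H11Rik at chr10:3119691-3119890 (plus), Gm48681 at chr12:119567202-119567401 (minus), Gm833 at chr4:152697390-152697589 (plus), D930007P13Rik at chr15:103146779-103146978 (minus), H19 at chr7:142578094-142578293 (minus) and Meg3 at chr12:109540851-109541050 (plus).
Miat: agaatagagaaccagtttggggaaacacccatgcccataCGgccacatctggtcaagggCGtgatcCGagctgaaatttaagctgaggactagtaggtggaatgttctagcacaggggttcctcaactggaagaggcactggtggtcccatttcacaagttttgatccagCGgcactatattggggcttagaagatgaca
Mir124a-1hg: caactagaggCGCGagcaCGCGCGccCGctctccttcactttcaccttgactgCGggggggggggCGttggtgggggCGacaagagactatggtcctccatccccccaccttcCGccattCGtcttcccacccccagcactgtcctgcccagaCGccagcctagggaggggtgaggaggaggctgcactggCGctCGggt
9230019H11Rik: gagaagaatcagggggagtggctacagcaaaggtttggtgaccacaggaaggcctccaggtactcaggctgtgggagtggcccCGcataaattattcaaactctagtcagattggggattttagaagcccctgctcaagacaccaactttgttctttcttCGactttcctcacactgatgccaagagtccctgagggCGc
Gm48681: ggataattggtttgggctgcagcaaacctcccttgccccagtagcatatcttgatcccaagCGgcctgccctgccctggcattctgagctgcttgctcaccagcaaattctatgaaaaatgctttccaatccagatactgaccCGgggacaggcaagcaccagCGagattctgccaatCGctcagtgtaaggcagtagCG
Gm833: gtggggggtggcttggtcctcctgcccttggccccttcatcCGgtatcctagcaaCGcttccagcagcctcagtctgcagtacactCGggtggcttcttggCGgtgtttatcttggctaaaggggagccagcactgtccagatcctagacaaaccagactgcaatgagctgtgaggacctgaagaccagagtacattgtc
D930007P13Rik: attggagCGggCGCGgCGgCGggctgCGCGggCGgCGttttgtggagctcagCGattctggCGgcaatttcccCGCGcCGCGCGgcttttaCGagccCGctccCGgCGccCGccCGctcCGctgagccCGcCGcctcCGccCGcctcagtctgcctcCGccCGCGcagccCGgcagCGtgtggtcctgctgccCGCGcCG
H19: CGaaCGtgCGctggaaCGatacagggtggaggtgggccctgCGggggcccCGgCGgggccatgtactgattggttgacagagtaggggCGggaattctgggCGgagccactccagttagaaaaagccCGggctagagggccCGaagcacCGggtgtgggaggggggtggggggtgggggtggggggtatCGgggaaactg
Meg3: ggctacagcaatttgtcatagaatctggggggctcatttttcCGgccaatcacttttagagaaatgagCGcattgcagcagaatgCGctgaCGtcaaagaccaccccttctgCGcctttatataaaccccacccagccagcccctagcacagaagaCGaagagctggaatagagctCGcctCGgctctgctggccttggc
D930007P13Rik held 35 CpG dinucleotides in the 200 bases shown and Mir124a-1hg held 14, against 3 in 9230019H11Rik and 4 each in Miat and Gm833. Over the whole 2 kb the order differed, with 104 CpG in Mir124a-1hg, 79 in Miat, 72 in D930007P13Rik, 69 in Meg3, 55 in H19, 49 in Gm48681, 48 in Gm833 and 12 in 9230019H11Rik.

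Among the 4587 lincRNA promoters, 985 (21.5%) were marked in at least 1 list and 3602 (78.5%) in none, against 80.3% of all 51229 5′ ends in none. No list had a single peak base in 2349 of the members (51.2%). Of the marked members, 351 were marked in 1 list only, 234 in 5 or more and 18 in all 10. The rule has a sharp edge at 50%, and 82 members were covered between 45 and 50% in at least 1 list without being marked in any. Paupar, a neural RNA gene beside Pax6, stood just outside with 49.8% at 6 hpa, and Gm15339 stood just inside with 51.3% in the same list.

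The marked share moved within narrow bounds over development and did not fall steadily from donor cell to blastocyst. In CC, 307 members were marked (6.69%, 95% interval 6.01 to 7.45%), beside 7.54% of all autosomal 5′ ends. The count was 293 at 6 hpa (6.39%, 5.72 to 7.13%; all 5′ ends 7.50%) and 383 at 14 hpa (8.35%, 7.58 to 9.19%; all 5′ ends 7.26%). At the 2-cell stage it was 269 (5.86%, 5.22 to 6.58%), where 4.27% of all 5′ ends were marked. The 4-cell and 8-cell lists marked 377 members (8.22%, 7.46 to 9.05%) and 381 members (8.31%, 7.54 to 9.14%), beside 5.31% and 4.91% of all 5′ ends. In the morula 335 members were marked (7.30%, 6.59 to 8.09%; all 5′ ends 5.03%). ICM and TE had 249 (5.43%, 4.81 to 6.12%) and 229 (4.99%, 4.40 to 5.66%), beside 3.94% and 3.64% of all 5′ ends. PN5 had the lowest count, 207 (4.51%, 3.95 to 5.15%), which lay near the 4.48% of all 5′ ends. The 14 hpa, 4-cell and 8-cell shares were the 3 highest and their intervals overlapped. These ranks hold for the lists as deposited, which cover 134 Mb in PN5 to 255 Mb in CC. Trimmed to the length of PN5 by q value, the share was lowest in CC (4.21%), 4.51% in both TE and PN5, 5.12% at 14 hpa and highest in 4-cell (6.98%) and 8-cell embryos (6.82%).

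Compared with the 20807 autosomal protein-coding promoters, lincRNA promoters were marked more often in every list but 6 hpa. The difference was 2.94 percentage points in CC (6.69% against 3.75%, interval 2.21 to 3.74), 5.04 at 14 hpa (8.35% against 3.31%, 4.24 to 5.91) and 6.01 in 8-cell embryos (8.31% against 2.29%, 5.22 to 6.87). In ratio it was widest in the blastocyst, where 5.43% against 1.14% in ICM came to 4.75 times and 4.99% against 1.04% in TE to 4.79 times. At 6 hpa the order was turned, with 6.39% of lincRNA and 7.17% of protein-coding promoters marked, a difference of −0.783 points whose interval (−1.54 to 0.0368) includes 0. In PN5 the lincRNA share was 0.865 points higher (0.243 to 1.55). That interval included 0 with a stricter peak threshold or with repeated sequence left out of the lincRNA members alone. With repeated sequence left out of both sets the PN5 difference was 0.973 points (0.359 to 1.65). The 622 lincRNA promoters near a coding 5′ end were marked at 3.54% in CC, 9.32% at 6 hpa, 0.965% in morulae and 3.38% in PN5, and were not tested against the coding promoters. The distant members exceeded them by 3.16 points in CC (1.27 to 4.57) and 6.34 in morulae (5.01 to 7.28), and differed from them by −2.94 points at 6 hpa (−5.57 to −0.763), while in PN5 the interval included 0 (1.14, −0.683 to 2.46).

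**Figure D1:**
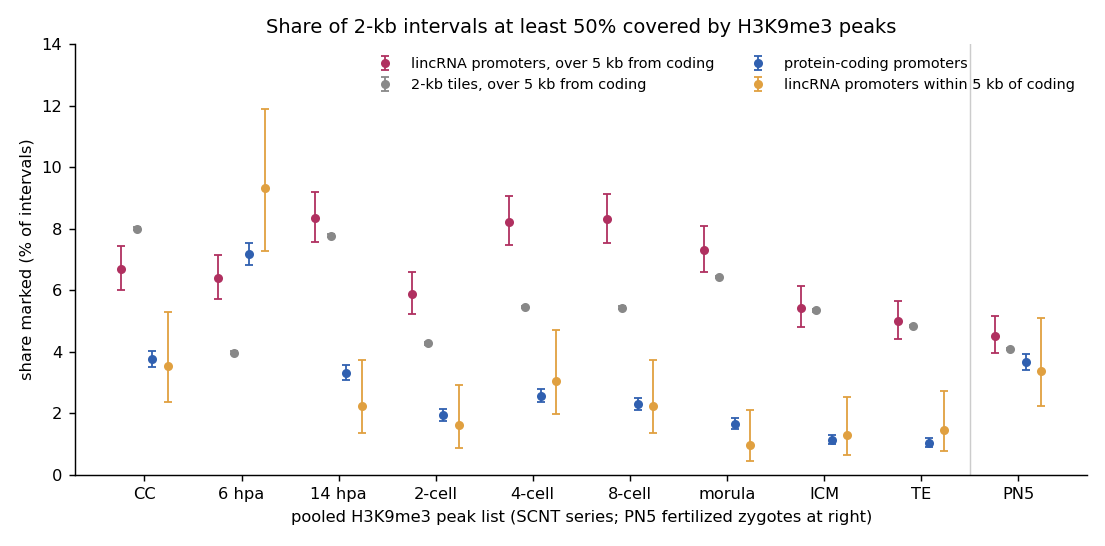
Share of 2-kb intervals marked by H3K9me3 peaks (vertical axis, percent) in each of the 10 peak lists (horizontal axis), for 4587 lincRNA promoters, distant tiles, protein-coding promoters and lincRNA promoters near a coding 5′ end; bars are 95% counting intervals. The lincRNA points lie above the coding points except at 6 hpa, where 6.39% stands beside 7.17%.

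Set against sequence at large, lincRNA promoters were marked more often in several SCNT lists, a difference that depended on GC content. The comparison set was 1105108 tiles of 2 kb whose centres also lay over 5 kb from any coding 5′ end. In CC fewer promoters than tiles were marked (6.69% against 8.00%, −1.31 points, −2.0 to −0.550). At 6 hpa more were marked (6.39% against 3.97%, 2.42 points, 1.75 to 3.16), likewise in 2-cell (1.60, 0.951 to 2.31), 4-cell (2.76, 2.00 to 3.60) and 8-cell embryos (2.88, 2.11 to 3.71) and by a small margin in morulae (0.881, 0.161 to 1.67). At 14 hpa and in ICM, TE and PN5 the interval of the difference included 0. The median GC content was 45% in the promoters and 41.4% in a sample of 1 in 100 of the tiles. With the tiles weighted to the GC content of the promoters in 8 classes, the tile share at 6 hpa became 6.81% and the difference −0.426 points (−1.13 to 0.275), and in 8-cell embryos 8.86% and −0.555 points (−1.35 to 0.238). Under that weighting no list had a higher share in lincRNA promoters than in tiles, and the difference ran from −2.12 points in PN5 (−2.72 to −1.52) to the value at 6 hpa. Within single GC ranges the sign differed. Among the 1594 members of 40 to 45% GC more were marked than tiles of that GC at 6 hpa (4.71% against 3.59%, 1.12 points, 0.181 to 2.27) and in 8-cell embryos (7.97% against 5.54%, 2.43 points, 1.20 to 3.86), and likewise in 2-cell and 4-cell embryos and morulae. Among the 1638 of 45 to 50% GC fewer were marked in every list, by −1.72 points at 6 hpa (−2.98 to −0.271) and −2.76 in 8-cell embryos (−4.20 to −1.14). With intervals of mostly repeated sequence left out of both sets instead, the excess at 6 hpa was 2.22 points (1.51 to 2.97) and the deficit in CC was no longer seen (−0.0497, −0.788 to 0.735).

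From one list to the next, between 27.1% and 49.3% of the members marked in the later list had not been marked in the earlier one. From CC to 6 hpa, 175 promoters were marked in both (inherited), 132 in CC only (erased, 43.0% of the CC set, 37.6 to 48.6%) and 118 at 6 hpa only (de novo, 40.3% of the 6 hpa set, 34.8 to 46%). These classes held 3.82%, 2.88% and 2.57% of the members, against 3.43%, 4.11% and 4.07% of all 5′ ends, so that the inherited class lay near the general level and the erased and de novo classes below it. The CC list covers 255 Mb and the 6 hpa list 157 Mb, and with every list trimmed to 134 Mb there were 68 erased and 138 de novo members, so the order of loss and gain depends on the length of the lists. From 6 to 14 hpa 189 were gained and 99 lost, and from 14 hpa to 2-cell embryos 73 were gained and 187 lost, the smallest gain and the second largest loss of the series. From 2-cell to 4-cell embryos 179 were gained and 71 lost. Between morula and ICM 174 of 335 lost the mark (51.9%, 46.6 to 57.2%), and between morula and TE 191 (57.0%, 51.7 to 62.2%). The 14 hpa list covers 237 Mb and the 2-cell list 137 Mb. For the steps after 6 hpa no gains and losses over all 5′ ends or from trimmed lists are given here. These counts thus cannot be called particular to lincRNA promoters. Since lists shift with the enrichment of their libraries, a promoter outside a list had too little enrichment to be called and may still hold H3K9me3.

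**Figure D2:**
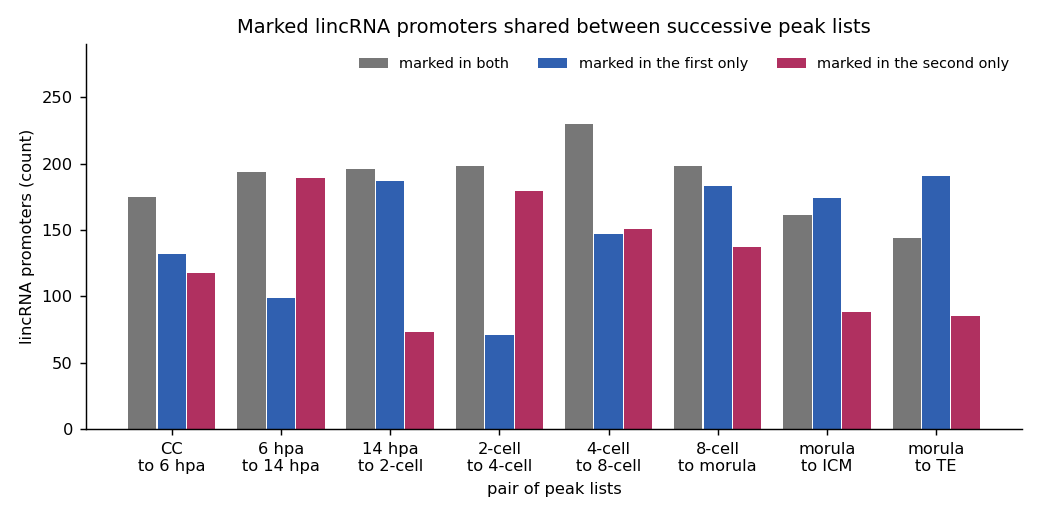
Number of lincRNA promoters (vertical axis) marked in both, in the first only or in the second only of 2 successive peak lists (horizontal axis); ICM and TE are each set against the morula. The CC to 6 hpa bars read 175, 132 and 118, and the 14 hpa to 2-cell bars 196, 187 and 73.

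The erased and inherited classes lay apart at 14 hpa and in 2-cell embryos and close together in ICM. Of the 175 inherited promoters, 153 were marked at 14 hpa (87.4%), 105 in 2-cell embryos (60%), 66 in ICM (37.7%) and 71 in TE (40.6%). Of the 132 erased ones, 57 carried the mark again at 14 hpa (43.2%), 20 in 2-cell embryos (15.2%), 42 in ICM (31.8%) and 38 in TE (28.8%), so a part of the donor pattern absent at 6 hpa was present in later lists. Of the 118 de novo promoters, 41 were marked at 14 hpa (34.7%), 50 in 4-cell embryos (42.4%), 22 in ICM (18.6%) and 20 in TE (16.9%). Median GC content was 49% in the de novo, 46.5% in the inherited and 42.3% in the erased class. As the lists are pooled and lincRNA promoters can share a neighbourhood, these shares describe the lists only.

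CpG content set the lincRNA promoters apart from coding ones and also divided them among themselves. A promoter was high-CpG when a 500-base window within it reached a CpG ratio of 0.75 and a GC content of 55%, low-CpG when no window reached 0.48, and intermediate otherwise. By this rule 3200 members (69.8%) were low-CpG and 165 (3.60%) high-CpG, against 31.7% and 49.9% of the coding promoters. At 6 hpa 32 of the 165 high-CpG members were marked (19.4%, 14.1 to 26.1%), beside 14 in CC (8.48%, 5.12 to 13.7%) and 14 at 14 hpa (8.48%). In low-CpG members the share was 4.97% at 6 hpa (4.27 to 5.78%) and 5.75% in CC. The de novo class held 20 of the 165 high-CpG members (12.1%, 7.99 to 18%) and 72 of the 3200 low-CpG members (2.25%, 1.79 to 2.82%). Without members of mostly repeated sequence these became 17 of 150 (11.3%) and 64 of 3077 (2.08%). High-CpG lincRNA promoters were marked more often than high-CpG coding promoters in every list, with intervals above 0. The difference was 10.3 points at 6 hpa (19.4% against 9.05%, 5.00 to 17.1) and 7.93 in CC (8.48% against 0.558%, 4.56 to 13.2). As a ratio this was 2.14 times at 6 hpa and 15.2 times in CC. In the morula only 1.21% of the high-CpG lincRNA promoters were marked.

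Within the low-CpG class the lincRNA promoters were marked more often than coding ones from the 2-cell stage to the blastocyst but not in each list. In CC they were below them (5.75% against 9.48%, −3.73 points, −4.78 to −2.63), and at 6 hpa, 14 hpa and in PN5 the interval included 0. They were above them in 2-cell (1.35 points, 0.524 to 2.24), 4-cell (2.72, 1.67 to 3.83) and 8-cell embryos (8.06% against 5.25%, 2.81 points, 1.76 to 3.93). The same held in morulae (2.94, 1.95 to 3.99), ICM (2.57, 1.82 to 3.40) and TE (2.47, 1.75 to 3.26). The higher CC share of lincRNA promoters as a whole thus did not hold within the class to which 69.8% of them belong. In the intermediate class lincRNA promoters were higher in CC (8.92% against 2.53%) and in 8-cell embryos (9.66% against 2.58%).

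GC content over the whole 2 kb divided the members most sharply at 6 hpa and the cleavage stages. Of the 694 members under 40% GC, 5.19% were marked in CC, 0.288% at 6 hpa, 0.144% in 2-cell embryos and 0.432% in 8-cell embryos. Of the 661 members at 50% GC or more, 5.14% were marked in CC, 11.8% at 6 hpa (9.56 to 14.5%), 9.38% in 2-cell embryos and 10.4% in 8-cell embryos. In CC, at 14 hpa and in morulae, ICM and TE the share was instead highest between 40 and 45% GC, at 7.84%, 9.54%, 9.28%, 7.53% and 6.09%.

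**Figure D3:**
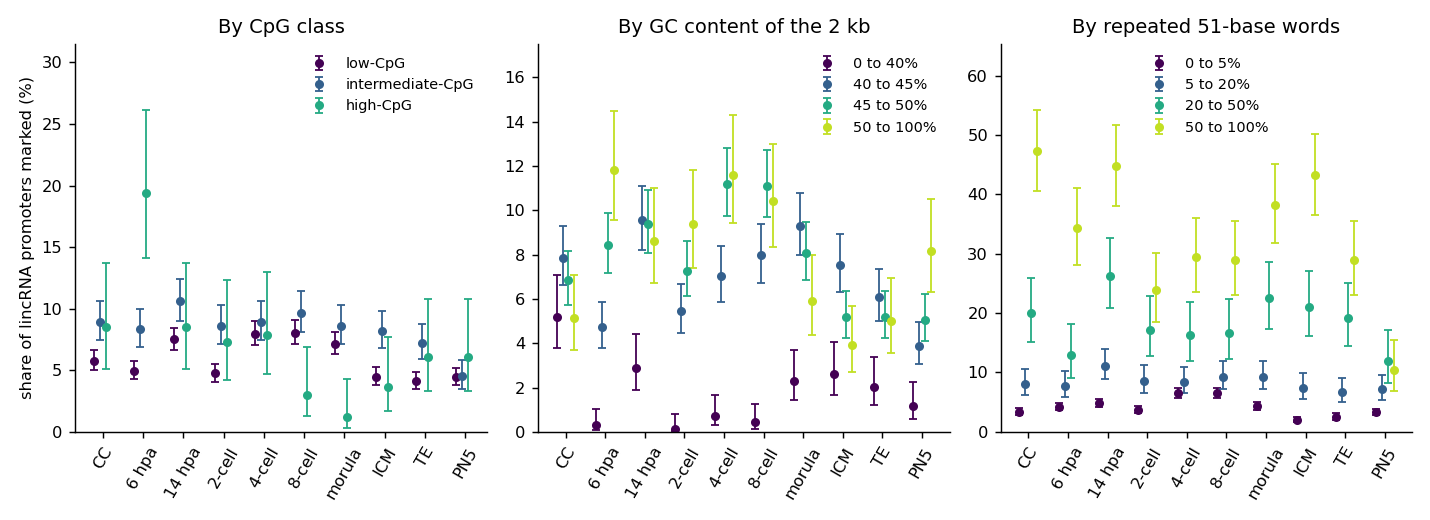
Share of lincRNA promoters marked (vertical axes, percent, with 95% counting intervals) in each peak list, split by CpG class, by GC content and by the percentage of 51-base words that recur in the genome; the vertical scales differ. High-CpG members stand out at 6 hpa with 19.4%, members under 40% GC are nearly unmarked in 2-cell embryos with 0.144%, and members of mostly repeated words reach 47.3% in CC.

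Repeated sequence went with the mark in every list. Soft-masked bases are those in lower case in the assembly sequence, and they were not checked against a repeat annotation. Of the 120 members soft-masked over 75% or more of their length, 38.3% were marked in CC (30.1 to 47.3%), 49.2% at 14 hpa, 52.5% in ICM and 11.7% in PN5. Of the 2849 members masked under 25%, 4.42% were marked in CC, 5.37% at 14 hpa, 1.83% in ICM and 3.69% in PN5. A second measure, which can overlap with the first, was the percentage of 51-base words of a promoter that occur again elsewhere in the genome. In the 201 members with 50% or more repeated words the share was 47.3% in CC (40.5 to 54.2%), 34.3% at 6 hpa, 43.3% in ICM and 10.4% in PN5. In the 3585 members under 5% it was 3.40% in CC, 6.53% in 4-cell embryos, 2.06% in ICM and 3.29% in PN5. Reads from such copies cannot be placed with certainty, and a peak there may belong to any copy. Heavily masked members with fewer than 50% repeated words, 45 in number, were marked at 31.1% in CC (19.5 to 45.7%) and 26.7% in ICM (16 to 41%), but at 11.1% at 6 hpa (4.84 to 23.5%) and 8.89% in 8-cell embryos and PN5 (3.51 to 20.7%), where members under 50% in both measures had 4.80%, 6.94% and 3.98%. The class of repeat was not analysed here.

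The marked share also differed by position. The 349 members over 500 kb from a coding 5′ end were marked at 14.0% in CC (10.8 to 18.1%), 13.5% at 14 hpa and 4.58% in PN5, against 4.63% (3.35 to 6.37%), 7.14% and 3.17% for the 756 members within 20 kb. The gap in 8-cell embryos was smaller, with 7.74% and 5.03%. Chromosome 4 had the highest share of marked members of all autosomes in 8 of the 10 lists, with 14.3% of its 182 members marked in CC, 17% in 2-cell embryos, and 19.2% and 19.8% at 6 and 14 hpa. ICM was led by chromosome 13 (9.82%) and PN5 by chromosome 11 (7.19%), and chromosome 4 had 5.49% in PN5. Marked members were found on all 19 autosomes in every list. The 123 members with a zinc finger (Zfp) gene 5′ end within 100 kb were marked at 11.4% in CC (6.90 to 18.2%) against 6.56% of the rest (5.87 to 7.33%), and at 5.69% against 8.38% in 8-cell embryos, with intervals that overlap in both lists.

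Peaks were not centred on these promoters in the donor cells but were slightly denser there at 6 hpa. Over the 500 bases on either side of the 5′ end, 7.71% of bases lay in CC peaks, against 8.10% at 2 to 5 kb, a ratio of 0.952. At 6 hpa the values were 9.13% and 7.11% (1.28), in 2-cell embryos 7.31% and 6.23% (1.17), and in 8-cell embryos 10.4% and 9.49% (1.10). PN5 was flat over these distances (5.86% and 5.85%). Against 15 to 20 kb the ratio was 1.25 at 6 hpa, 1.04 in 2-cell and 1.06 in 8-cell embryos, 0.862 in CC and 0.899 in PN5. Coding 5′ ends are absent within 5 kb by the choice of members. Peaks over marked members were widest in CC, with a median of 4643 bp and 149 of 307 members (48.5%) in peaks over 5 kb, against 2100 bp and 18.8% at 6 hpa and 2131 bp and 9.18% in PN5. The fold enrichment of peaks at marked members had a median of 3.08 in CC, 2.92 at 6 hpa, 3.64 in ICM and 2.95 in PN5. In CC 98 of the 307 marked members (31.9%) had another marked member within 100 kb, and in PN5 17 of 207 (8.21%).

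**Figure D4:**
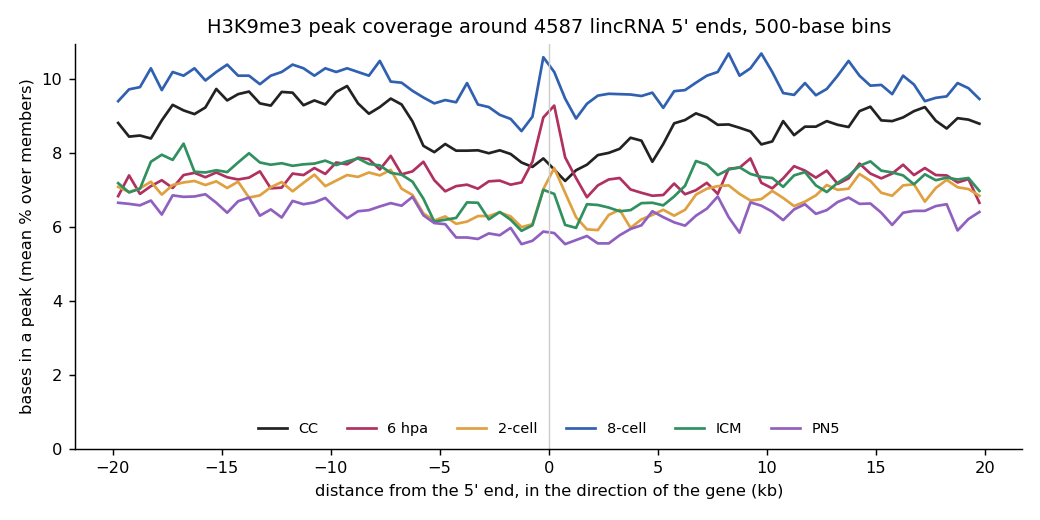
Mean percentage of bases in an H3K9me3 peak (vertical axis) in 500-base bins within 20 kb of 4587 lincRNA 5′ ends, upstream to the left (horizontal axis, kb), for 6 of the peak lists. The 6 hpa line rises to 9.13% within 500 bases of the 5′ end from 7.11% at 2 to 5 kb, while the CC line has no such rise.

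Of the de novo class, 51 members had no peak base at all in CC. The strongest of them at 6 hpa was 9230019H11Rik on chromosome 10, which was covered 100% at 6 hpa with a fold of 11.2 and 0% in all other lists. That fold was the highest at any marked member in any list, while the highest fold in another list was 5.87, in ICM. The promoter is low-CpG with 0% repeated words, but copies outside the assembled chromosomes would not be counted. The cause of this high fold was not tested. Miat, also called Gomafu, a nuclear RNA of neurons and retina, was covered 97.6% at 6 hpa at a fold of 3.35, then 0% at 14 hpa, 4.60% in 2-cell, 18.3% in 4-cell and 5.90% in 8-cell embryos and 0% in CC, morula, ICM, TE and PN5. Gm47028 was covered 57.6% at 6 hpa, 17.8% at 14 hpa and 25.4% in 8-cell embryos, and 0% elsewhere. Gm15339 had 51.3% at 6 hpa and 50.7% in morulae, with 46.3% in 8-cell embryos, 39.2% in 2-cell embryos, 36.3% in TE and 15.3% in 4-cell embryos. The fifth, AC102496.1, had 79.7% at 6 hpa and 39.2% at 14 hpa, but 65.8% of its words are repeated.

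The RNAs of neural and lineage genes gave further cases at 6 hpa. Of 45 such genes listed, 14 were members and 5 were marked in some list, against 21.5% of all members. Mir124a-1hg, the host of the neuronal microRNA miR-124, was covered 100% at 6 hpa (fold 2.91) and 64.9% at 14 hpa, and 0% in CC and from the 2-cell stage on. Mir9-3hg, the host of miR-9, which acts in neural progenitors, was covered 95.4% at 6 hpa, 11.5% in CC and 11.3% at 14 hpa, 7.70% in 4-cell embryos and 0% in the remaining lists. Miat, Mir9-3hg and Mir124a-1hg are all high-CpG, and they were the 3 of the 14 marked at 6 hpa. In that list 6.39% of all members, 19.4% of high-CpG members and 7.50% of all 5′ ends were marked. The 3 of 14 were not tested against these shares. Hotair, an RNA of the HoxC cluster, was covered 51.3% in 4-cell and 48.5% in 8-cell embryos and 0% in the other 8 lists, so it stood on either side of the threshold in adjacent stages. Mirt1, a transcript first described in infarcted heart, was covered 92.3% at 14 hpa and 100% in PN5, 77.5% in 8-cell embryos, 3.45% in CC and 0% at 6 hpa. The 9 unmarked genes of the list include Lncpint, Mir155hg, Trp53cor1, Bvht and Carmn, which had no peak base in any list.

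At imprinted domains 3 of the 12 listed RNA genes were members, and each was marked in some list, against 21.5% of all members, a count too small to set beside that share. H19, the maternally expressed RNA beside Igf2, was covered 0% in CC and at 6 hpa, 47.6% at 14 hpa, 65.2% in 2-cell, 57.4% in 4-cell and 54.9% in 8-cell embryos, 69.5% in morulae, 44.4% in ICM, 83.4% in TE and 0% in PN5. It was marked in 5 lists, none of them a donor or fertilized one. Meg3, the maternally expressed RNA of the Dlk1-Dio3 domain, ran the other way, with 71.6% in CC, 60.9% at 6 hpa, 40.9% at 14 hpa, 26.3% in 2-cell and 25.3% in 4-cell embryos, and 0% from the 8-cell stage to TE and in PN5. Mirg, a microRNA host of the same domain, was covered 73.9% in 2-cell embryos and 100% in morulae, 44.1% at 14 hpa, 13.0% in ICM, 22.1% in TE and 14.6% in PN5, and 0% in CC, at 6 hpa and in 4-cell and 8-cell embryos. The lists carry no allele information, so coverage of one or both parental copies cannot be told apart.

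ZFP57, the zinc finger protein that keeps H3K9me3 on imprinting control regions, recognises the methylated hexamer TGCCGC. These letters, on either strand, were in 894 of the 4587 promoters (19.5%), against 29.6% of all 51229 5′ ends and 43.5% of coding promoters at the same 2-kb length. They were in 33.8% of the members marked at 6 hpa, 24.1% of those marked in CC and 42.9% of the 98 marked in each of the first 4 lists, from CC to 2-cell embryos. Miat held 3 copies, Gm48681 2, Meg3, Mirg and Mir124a-1hg 1 each and H19 none in this window. The hexamer contains a CpG and followed CpG class, being in 56.4% of high-CpG and 13.8% of low-CpG members, and a match describes the letters only.

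Of 38 listed transcripts linked to the pluripotent state 20 were members and 5 were marked in some list, against 21.5% of all members. Platr2 was covered 85.7% in CC and 78.9% at 6 hpa, 38.8% by 14 hpa, 73.8% in 2-cell embryos and then 15.4% or less, but 76.1% of its words are repeated. Platr28 was marked in CC alone (54.0%) with 0% in the other 9 lists, Platr30 in 8-cell embryos alone (69.4%), Platr15 at 14 hpa alone (54.4%) and Platr13 in 8-cell embryos alone (63.6%). Platr13 was covered between 24.1% and 49.5% in its other lists, so that its single call rests on the threshold. Lncenc1, which is expressed in naive embryonic stem cells, had 7.35% in PN5 and no peak base elsewhere, and Eprn had none in any list. Of 21 listed nuclear body and widely expressed RNAs 8 were members, too few to set a count of 0 marked apart from the 21.5% of all members. Of the 8, 6 had some peak base (2238 of the 4587 members), and their median coverage in CC was 8.72% against 0% over all members. Their highest values were 43.1% in CC for Neat1, the scaffold of paraspeckles, and 38.0% in 2-cell embryos for Malat1 of nuclear speckles.

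A small set kept the mark from the donor nucleus to the 2-cell embryo. In all, 98 members were marked in each of the CC, 6 hpa, 14 hpa and 2-cell lists (2.14%, 1.76 to 2.60%), against 1.65% of all 5′ ends. Of these, 74 were still marked in 4-cell embryos (75.5%), 57 in morulae (58.2%), 50 in ICM and 51 in TE, and 39 were marked in PN5 (39.8%). Chromosome 4 held 16 of the 98 (16.3%) but 3.97% of all members. In 36 of the 98 over 50% of the words are repeated, and 62 remain without them. No peak base in PN5 was found at 33 of the 98, and the 5 with the fullest coverage were named by the rule. Gm833 on chromosome 4, 219669 bp from the nearest coding 5′ end, that of Kcnab2, was covered 100% in CC, at 6 and 14 hpa and in 2-cell and 4-cell embryos, then 44.7% in 8-cell embryos, 26.5% in morulae and 0% in ICM, TE and PN5. Gm13115, on the same chromosome and without repeated words, was covered 100% from CC to 8-cell embryos and 70.6% in morulae, and likewise 0% in ICM, TE and PN5. Both were thus covered in full up to 4-cell embryos and had no called peak in the blastocyst.

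The other 3 of that group had mostly repeated words. Gm16211, close to Zfp979 in the zinc finger cluster of chromosome 4, was covered 100% from CC to 2-cell embryos, 44.1%, 40.2% and 64.0% in 4-cell embryos, 8-cell embryos and morulae and 100% in ICM and TE, with 86.8% of its words repeated. Gm43549 was covered 100% from CC to 2-cell embryos, at least 90.3% to the morula and 100% in ICM and TE (83.3% repeated). Gm16025 was covered 100% up to 2-cell embryos, 58.8% in 4-cell embryos, 55.4% in morulae and 0% in ICM and TE (66.3% repeated).

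The 18 members marked in all 10 lists made up 0.392% (0.248 to 0.619%), against 0.303% of all 5′ ends, and 15 of them were soft-masked over more than 50% of their length. Their median of repeated words was 80.5%, against 0.461% over all members, and 6 remained without those over 50%. Gm48681 on chromosome 12, with 16.8% repeated words, was covered 100% in all lists of donor and SCNT cells and 99.1% in PN5, at folds from 3.02 to 3.88. Gm29408 was covered at least 91.8% in every list, Gm42428 at least 90.8%, Gm47761 at least 87.8% and Gm48275 at least 83.9%, and their words were repeated at 80.3%, 99.4%, 100% and 97.9%. Within the erased class (2.88% of members, 4.11% of all 5′ ends), 29 members had no peak base at 6 hpa. Among these 29, Gm28187 was covered 100% in CC, 15.8% at 14 hpa and 9.45% in TE, and 0% in the others. Gm7762 had 62.2% in CC, 16.8% at 14 hpa and 1.55% in 2-cell embryos, and Gm1698 had 51.8% in CC and no peak base elsewhere. Their GC content was 35.6% (Gm28187), 41.6% (Gm7762) and 33.7% (Gm1698).

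Between SCNT embryos at 14 hpa and fertilized PN5 zygotes, 108 members were marked in both (2.35%; all 5′ ends 1.93%), 275 at 14 hpa only (6.00%; all 5′ ends 5.33%) and 99 in PN5 only (2.16%; all 5′ ends 2.54%). In lists trimmed to equal length these became 79, 156 and 128, so most of the gap between 14 hpa only and PN5 only went with the length of the lists. The shared promoters were 28.2% of the 14 hpa set and 52.2% of the PN5 set. Of the 275, 158 were marked in CC (57.5%), and of the 99, 2 were (2.02%). PN5 alone of the 10 lists marked 70 members (1.53%; all 5′ ends 1.81%). Over all 45 pairs of lists the 2 sets most alike were ICM and TE, with a Jaccard index (shared over either) of 0.48, and the 2 least alike were CC and PN5, with 0.117. How much of this belongs to fertilization, to strain or to the other study cannot be told apart.

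At 60 members PN5 marked a promoter without any peak base at 14 hpa. The 5 of highest fold were covered 20.3% or less in every SCNT list. These 60 belong to the class marked in PN5 and not at 14 hpa, with 2.16% of members against 2.54% of all 5′ ends. 5031425F14Rik was covered 83.1% in PN5 at a fold of 3.89 and 0% in the other 9 lists. D930007P13Rik, a high-CpG promoter, had 85.7% in PN5, 20.3% at 6 hpa and 0% in the remaining 8. Gm48370 had 75.7% in PN5 and 20.0% in morulae. Gm30918 had 57.8% and Zfp469 55.4% in PN5, with 0% in all other lists. Zfp469 carries the symbol of a zinc finger gene but has the type lincRNA in this annotation. None of the 5 had more than 17.2% repeated words.

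In the blastocyst 155 members were marked in both ICM and TE (3.38%; all 5′ ends 2.54%), 94 in ICM only (2.05%; all 5′ ends 1.40%) and 74 in TE only (1.61%; all 5′ ends 1.10%). The shared promoters were 62.2% of the ICM set and 67.7% of the TE set. Of the 94 ICM promoters 47 were marked in morulae (50%), and of the 74 TE promoters 30 (40.5%). Median soft-masking was 43.9% in the ICM class and 23.4% in the TE class. The ICM class fell to 59 and the shared class to 103 without members of repeated words. Each lineage rests on 2 pooled libraries, so that a difference between them has no replicate check.

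Of the 6 members with the widest gap between the lineages, 4 had few repeated words. 4930519F24Rik was covered 91.7% in ICM and 0% in TE, with 42.1% in morulae and 27.2% in CC. Gm47409 was covered 100% in morulae and ICM and 8.80% in TE, and 63.6% in 8-cell embryos. Gm38025 had 82.5% in ICM, 0% in TE and 92.0% in 4-cell embryos, with 59.3% repeated words. On the other side, Gm41481 had 95.9% in TE, 92.7% in morulae and 2.30% in ICM. 5033426E14Rik, beside the homeobox gene Zfhx3, had 87.2% in TE and 0% in ICM, and 32.4% in morulae. Gm26763, beside Zfp980 on chromosome 4, was covered 100% in CC, at 6 and 14 hpa and in morulae, 84.4% in TE and 3.50% in ICM, with 89.1% repeated words.

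**Figure D5:**
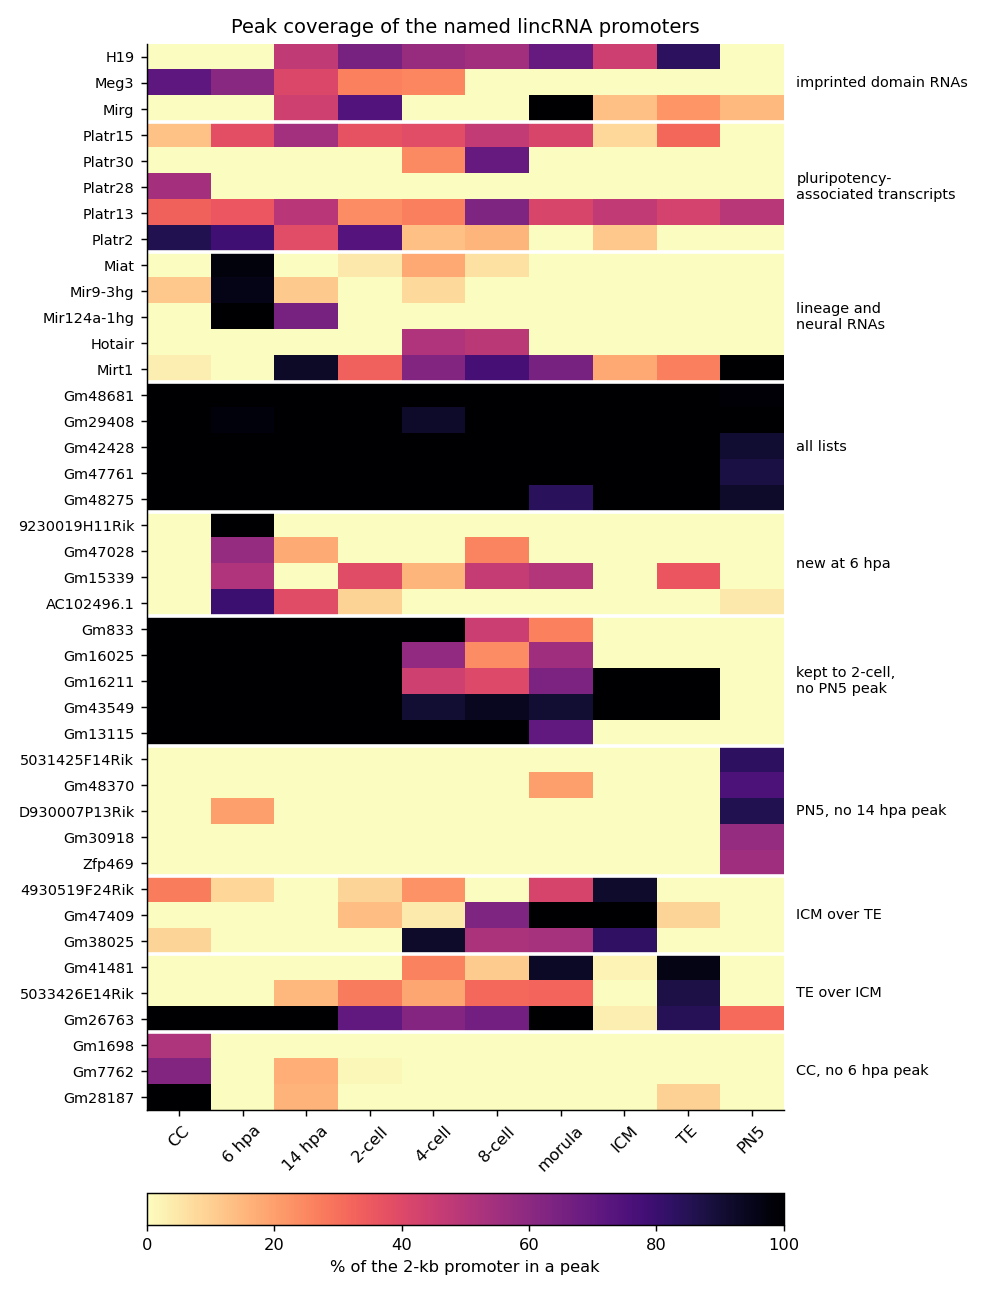
Percentage of the 2-kb promoter in an H3K9me3 peak (colour, 0 to 100%) for each named lincRNA gene (rows, grouped by the rule that named it) in each peak list (columns). Miat, Mir9-3hg and Mir124a-1hg are covered 97.6%, 95.4% and 100% at 6 hpa, and H19 is covered from 14 hpa on but not in CC, at 6 hpa or in PN5.

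A group of promoters was marked in the 4-cell or 8-cell list but in no earlier list. In 212 members (4.62%, 4.05 to 5.27%; all 5′ ends 2.30%) the mark was present in 4-cell or 8-cell embryos and absent from the CC, 6 hpa, 14 hpa and 2-cell lists. Of these, 121 were marked in 4-cell and 150 in 8-cell embryos, 61 in morulae (28.8%), 32 in ICM (15.1%), 28 in TE (13.2%) and 8 in PN5 (3.77%). Their median soft-masking was 19.7%, the same as in members marked in none of the lists, and their median GC content 46.4% against 44.8%. The 4-cell and 8-cell lists cover 168 and 181 Mb. The earlier lists cover 255 Mb in CC, 157 Mb at 6 hpa, 237 Mb at 14 hpa and 137 Mb in 2-cell embryos. No count of this class from trimmed lists or stricter peaks is given here, and the time of marking was not tested. Members named after testis-derived clone numbers (RIKEN symbols that begin with 1700 or 49) were 509 in all. In 4-cell embryos 11% of them were marked (8.57 to 14%), an interval above the 8.22% of all members. In 8-cell embryos the share was 10% (7.70 to 12.9%), an interval that holds the 8.31% of all members. In ICM it was 3.93% against 5.43%. All members include these 509, and the differences were not tested. The other RIKEN clones, 389 in all, were marked at 2.57% in 4-cell and 5.14% in 8-cell embryos.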

How the data were processed

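The 74 libraries, 41 precipitates and 33 inputs in 20 groups, were grouped by the labels, and 10 deposited peak lists were used, 1 per H3K9me3 group. The authors trimmed reads with Cutadapt (1.16 in the processing notes of the submitters), aligned them to mm10 with BWA mem, merged replicates with SAMtools, removed duplicates and drew equal read numbers with Picard, and called broad peaks over input with MACS2. Other versions and the peak threshold are not given in the sources used here. Each deposited peak has a fold enrichment, which is a ratio to input as MACS2 gave it, and a deposited −log10 q value, both averaged along the broad peak by MACS2. Read depth per library is not in the lists, so a promoter without a peak was below the threshold and not shown to be unmarked.

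From these files, peaks were merged within a list and the bases they cover were counted over each 2-kb promoter (GENCODE M21, GRCm38.p6), with Python 3.11.15 and NumPy 2.4.6. Coordinates are 1-based. Shares have Wilson 95% intervals and differences Newcombe 95% intervals, or normal intervals where tiles were weighted by GC, and they cover counting error only. Promoters are not independent, and 120 members share bases with the one before. Soft-masking and GC were read from the assembly, and 51-base words were counted over chromosomes 1 to 19, X and Y on both strands. Words were counted for all members, all coding promoters and 1 in 100 distant tiles. The coverage count was tested on simulated peaks.

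Named members were those of 4 gene lists marked in at least 1 list. Others were named by fullest coverage (all lists, or CC to 2-cell without a PN5 peak, 5 each), by highest fold (6 hpa without a CC peak and PN5 without a 14 hpa peak, 5 each, CC without a 6 hpa peak, 3), and by the widest gap between ICM and TE (3 each way). Lncenc1, Eprn, Paupar, Neat1, Malat1, Lncpint, Mir155hg, Trp53cor1, Bvht and Carmn are list members outside that rule, chosen after their values were seen, as was the cleavage-stage group. The members and lists were chosen with earlier results of these data known. Alternatives changed the coverage that counts as marked, the peak threshold, the distance, the width, the treatment of overlaps and of repeated words, and the total length of the lists.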

Additional observations from a re-analysis of the deposited data

How the results depend on the processing

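No paired analysis was possible because each group is a single pooled list, and no replicate could be left out. A distance of over 10 kb and counting overlapping members once left every share within its interval, every class count within 1.5 times and every difference on its side of 0.

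The shares followed the rule for marking. With 25% coverage they were 10.2% in CC, 12.7% at 6 hpa, 13.4% at 14 hpa, 10.4% in 2-cell, 13.6% in 4-cell and 15.1% in 8-cell embryos, 12.6% in morulae, 9.79% in ICM, 9.90% in TE and 8.85% in PN5. With 75% they were, in the same order, 4.16, 3.03, 4.23, 2.79, 3.84, 3.12, 2.73, 2.31, 2.16 and 1.87%. The rule of the study, by which a peak that lies at least 50% inside the promoter also counts, gave 12.8, 19.9, 15, 13.0, 16.3, 20.5, 16.4, 13.2, 14.0 and 11.9%. Without members of repeated words the shares were 4.83% in CC, 5.11% at 6 hpa, 6.68% at 14 hpa, 5.04% in 2-cell, 7.25% in 4-cell and 7.36% in 8-cell embryos, 5.88% in morulae, 3.69% in ICM and 3.90% in TE. Lists trimmed to the length of the shortest one gave 4.21% in CC, 5.12% at 14 hpa, 6.98% in 4-cell and 6.82% in 8-cell embryos, 5.01% in morulae and 4.60% in ICM. Peaks of −log10 q of at least 2 gave 5.34% at 6 hpa, 6.82% in 4-cell and 5.65% in 8-cell embryos, 6.43% in morulae and 2.79% in PN5. Promoters of 500 bases either side gave 7.94% at 6 hpa, 9.27% at 14 hpa, 7.0% in 2-cell and 9.83% in 8-cell embryos, 8.37% in morulae, 6.65% in ICM, 6.43% in TE and 5.36% in PN5.

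The difference from coding promoters at 6 hpa, −0.783 points as reported, was −3.92 at 25%, 0.353 at 75% (interval including 0), −0.812 in trimmed lists, −2.06 without members of repeated words, −1.48 with such intervals left out of both sets and −2.80 at 500 bases, so it turned sign with the coverage rule. The difference in PN5 fell to 0.593 without members of repeated words and to 0.387 at −log10 q of at least 2, both with intervals that include 0. With repeated words left out of both sets the PN5 difference was 0.973 (0.359 to 1.65). The difference from distant tiles depended on the setting. With tiles weighted to the GC classes of the members, an alternative chosen after the data were seen, it was −0.426 at 6 hpa, −1.71 at 14 hpa, −1.29 in 2-cell, −0.747 in 4-cell and −0.555 in 8-cell embryos, −1.44 in morulae, −1.43 in ICM, −1.49 in TE and −2.12 in PN5. Leaving repeated words out of the members alone gave −1.08 at 14 hpa, −0.540 in morulae, −1.65 in ICM and −0.936 in TE, but leaving them out of both sets, also chosen later, gave −0.0497 in CC, 1.51 at 14 hpa and 1.01 in PN5. At 75% coverage it was −0.316 in morulae, −0.507 in ICM and −0.227 in TE, at 25% 0.322 in morulae and −0.0150 in ICM, in trimmed lists −0.304 in CC and 0.442 in morulae, and at 500 bases 0.858 at 14 hpa and 0.816 in TE.

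Class counts moved most with coverage. At 25% there were 264 de novo, 317 inherited, 214 kept from CC to 2-cell embryos, 184 in PN5 and not at 14 hpa, 222 in both, 131 in TE only, 323 in ICM and TE and 51 in all lists. At 75% there were 62, 77, 37, 44, 42, 29, 70 and 7 of these, 152 at 14 hpa and not in PN5, and 36 in ICM only. Trimmed lists left 68 erased beside 138 de novo, and 156 at 14 hpa and not in PN5 beside 128 the other way. Without members of repeated words 62 were kept, 59 were in ICM only, 103 in ICM and TE and 6 in all lists, and at −log10 q of at least 2 there were 52 in PN5 and not at 14 hpa. Where no construction is named, the cause was not tested. The share of kept promoters marked in PN5 stayed within its interval under each alternative run. The difference between high-CpG and low-CpG members was recomputed for CC, where its interval included 0 under every setting, and for 6 hpa, where it stayed above 0.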
